A study of Macaca fascicularis with 25 samples.

Results

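Epiblast and hypoblast regions of Day 18 embryos were compared in 6 bulk RNA libraries, 3 labelled epiblast and 3 labelled hypoblast, out of 25 libraries in the series. These are all the libraries with those labels. The animal is the cynomolgus monkey, Macaca fascicularis. Both layers came from embryos frozen together with the decidua and cut into cryosections. Each library holds a capture of about 20 cells, taken from a putative region by laser microdissection. Its RNA was amplified with Smart-seq2, which copies whole transcripts into cDNA and works on tiny samples. In such bulk captures, fewer cells of a type and less RNA per cell cannot be told apart. The labels name no treatment, genotype or embryo for any library, so captures within a layer or across the layers may share an embryo. The p-values below therefore measure only the spread between captures, which may be technical. Each library carries a number from 1 to 3 in its title, and the labels do not state what that number marks.

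The epiblast is the pluripotent layer of the implanting embryo, from which the embryo proper and the amnion derive. The hypoblast, also called primitive endoderm, lies beneath it, lays down a basement membrane and lines the yolk sac. In primate embryos the pluripotency factors POU5F1, NANOG and SOX2 are the usual epiblast markers, and GATA4, GATA6 and SOX17 the usual hypoblast markers. The count table lists Ensembl identifiers without gene names, and 0 of its 28592 identifiers could be found in the RefSeq table used for names. The labels of the captures could not be checked against these markers here, and genes appear by identifier with no function attached.

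Hypoblast libraries held 9211631 counts ± 1616669 (SD, n = 3) and epiblast libraries 5940326 counts ± 434736 (SD, n = 3), with no overlap between the layers in depth. Detected identifiers numbered 15238 to 16162 in hypoblast and 13726 to 16728 in epiblast. Of the 20681 identifiers with a count in at least 1 of the 6 libraries, 11164 were detected in all 6. Levels below are CPM, read counts relative to the library's total, scaled by TMM to correct for library composition, and differences are in log2 CPM, epiblast minus hypoblast. Descriptions of direction and overlap use the 7338 identifiers that averaged 20 CPM or more over the 6 libraries.

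The libraries of number 1 stood apart from the other 4. Epiblast library 1 and hypoblast library 1 had a Spearman correlation of 0.644 across identifiers. The same-numbered correlations were 0.898 for number 2 and 0.892 for number 3. Hypoblast library 1 was most similar to hypoblast library 3, at 0.668, and epiblast library 1 to hypoblast library 1. The other 4 libraries were each most similar to the library of the opposite layer with the same number. Same-numbered libraries of opposite layers averaged 0.812 ± 0.145 (SD, 3 pairs). Libraries of opposite layers with different numbers averaged 0.654 ± 0.0902 (SD, 6 pairs), and libraries of the same layer averaged 0.671 ± 0.0948 (SD, 6 pairs). A layer label thus came with about the same similarity as a different label, while a shared number came with a higher one for numbers 2 and 3. These pairs reuse the same 6 libraries and were given no test.

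**Figure D1:**
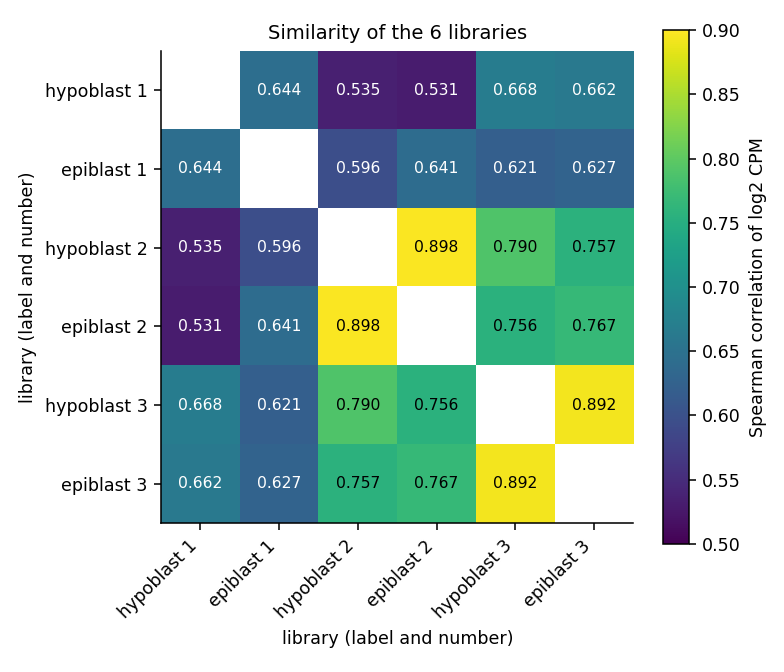
Spearman correlation of log2 CPM between the 6 libraries over 7338 identifiers, with libraries ordered by number and labelled by layer and number on both axes. Numbers 2 and 3 form bright blocks of opposite layers at 0.898 and 0.892, while the libraries of number 1 lie at 0.531 to 0.668 with every library.

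Counting error alone did not account for the spread between any 2 of the 6 libraries. A chi-square statistic per degree of freedom, which is 1 when counting error is the only difference, was 33.6 between the layers for number 3 and 43.5 for number 2. These were the lowest of the 15 pairs, of which the highest was 188, between hypoblast libraries 1 and 2. Amplified reads without molecular identifiers are not independent counts, so these values do not show that the captures are separate biological samples. No 2 libraries differed by as little as counting error, and all 6 were kept.

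Variation between the 6 libraries followed the number more than the layer. Number accounted for 66.7% of the summed variance of log2 CPM, with 2 of the 5 degrees of freedom. Layer accounted for 12.8%, with 1 degree of freedom, and 20.5% remained, with 2 degrees of freedom. Of the 3 terms, number had the largest mean square for 4044 identifiers (55.1%), layer for 1980 (27.0%) and the remainder for 1314 (17.9%). A mean square on 1 degree of freedom varies more than one on 2, so these counts do not compare directly. Without number 1 the shares of the summed variance were 72.1% for number, 16.8% for layer and 11.1% for the remainder, with 1 degree of freedom each. Within a layer, the median SD of log2 CPM across its 3 libraries was 0.51 in hypoblast and 0.52 in epiblast. The SD reached at least 1 for 1315 identifiers in hypoblast (17.9%) and for 1399 in epiblast (19.1%).

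Library ranges were also compared for overlap, by layer and by number. All 3 epiblast libraries were above all 3 hypoblast libraries for 368 identifiers (5.01%), and all below for 364 (4.96%). With plain CPM by library total in place of TMM, the counts were 462 above and 301 below, so the split between directions depends on the scaling. In a random order of the libraries, a share of 0.1 of identifiers would have no overlap, both directions together. With TMM the share was 9.98%. Variation followed the number, so the order was not fully random. Variation that same-numbered libraries share makes separation of the layers rarer, so 0.1 is too high a share to set beside 9.98%. No share allowing for the number was worked out. The identifiers without overlap are therefore not a count of layer differences, and no excess or lack of them was tested. Both libraries of number 1 were above or both below the other 4 for 2426 identifiers (33.1%). The same held for 1773 identifiers at number 2 (24.2%) and 998 at number 3 (13.6%). Sets of 2 against 4 and of 3 against 3 differ in size, so these counts do not compare directly. Gaps between the layers were small. The lowest library of one layer was at least 2-fold above the highest of the other for 1 identifier higher in epiblast, ENSMFAG00000039346, and for 5 higher in hypoblast, which include ENSMFAG00000004793 and ENSMFAG00000001045.

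**Figure D2:**
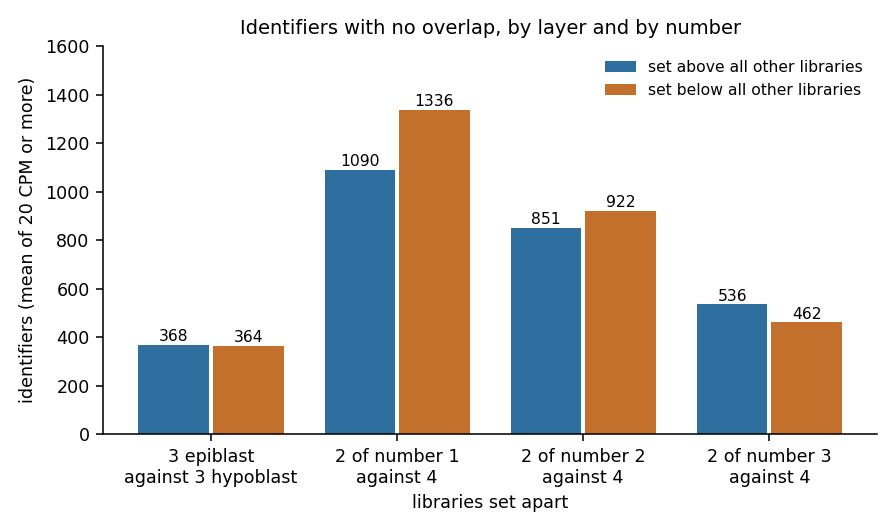
Number of identifiers, of 7338, for which a set of libraries lies wholly above (blue) or wholly below (orange) all others, for the 3 epiblast against the 3 hypoblast libraries and for the 2 libraries of each number against the other 4. The layers part 368 and 364 identifiers, and number 1 parts 1090 and 1336.

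The layers were then compared number by number, as S2-1 against S1-1 and so on, which sets aside what same-numbered captures share. In number 1 the median size of the difference was 0.69 on the log2 scale. It was 0.42 in number 2 and 0.35 in number 3. Differences of at least 2-fold numbered 2512 in number 1 (34.2%), of which 1098 were higher in epiblast and 1414 lower. In number 2 there were 967 (13.2%), 415 higher and 552 lower. In number 3 there were 701 (9.55%), 274 higher and 427 lower. With plain CPM the direction of the split flipped in number 2, to 619 higher and 338 lower, and stayed in numbers 1 and 3. Differences of at least 4-fold numbered 823 in number 1, 100 in number 2 and 99 in number 3.

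Differences of one number repeated weakly in another. Across the 7338 identifiers, Pearson's r between the differences of numbers 2 and 3 was 0.203 and Spearman's rho 0.239. For numbers 1 and 2 these were 0.128 and 0.150. For numbers 1 and 3 they were 0.000424 and 0.0558. Identifiers are not independent replicates, and each of these correlations rests on 4 libraries, so they are given as descriptions. The signs were the same for 59.4% of identifiers between numbers 2 and 3, for 55.4% between 1 and 2, and for 52.9% between 1 and 3. Among identifiers with at least a 2-fold difference in both numbers, 116 of 168 had one sign in 2 and 3 (69.0%). The same was true of 274 of 430 in 1 and 2 (63.7%) and of 187 of 374 in 1 and 3 (50%). Large differences of number 1 were thus as often opposed as shared in number 3.

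**Figure D3:**
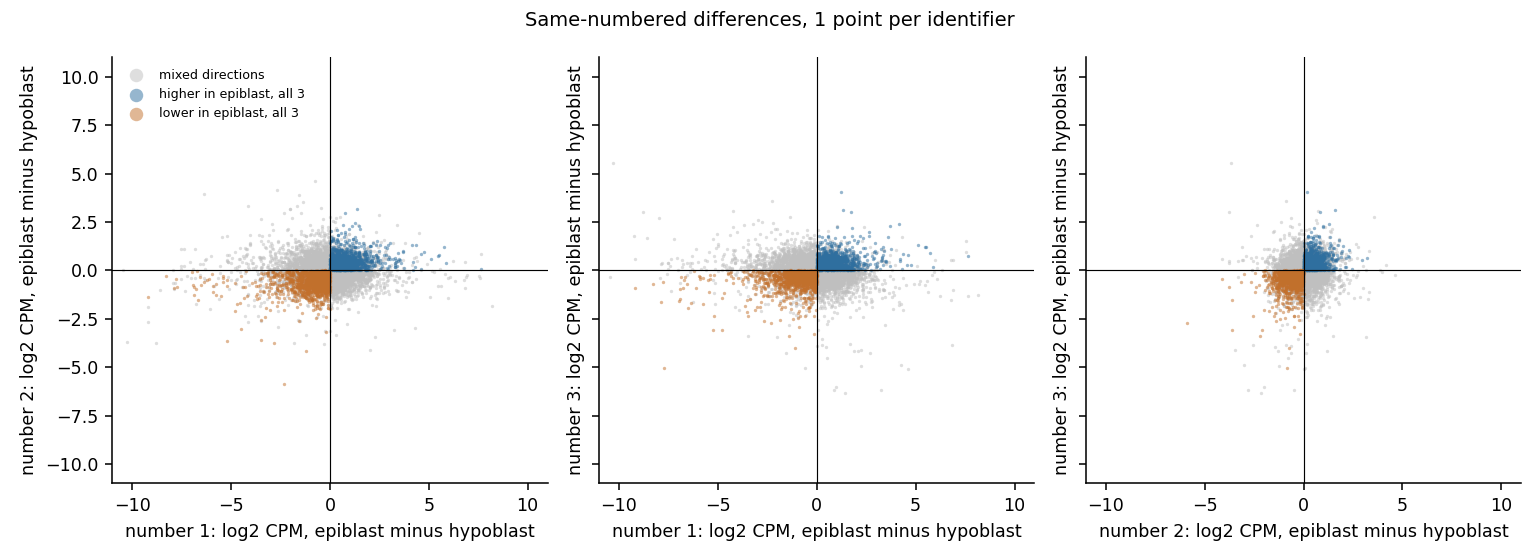
Same-numbered differences of log2 CPM, epiblast minus hypoblast, with 1 point for each of 7338 identifiers and a panel for each 2 numbers. Blue and orange points have one direction in all 3 numbers (1169 higher and 1319 lower in epiblast), and the horizontal spread of number 1 (SD 1.46) exceeds that of numbers 2 (SD 0.71) and 3 (SD 0.68).

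One direction in all 3 numbered pairs was found for 2488 of the 7338 identifiers. Of these, 1169 were higher in epiblast (15.9%) and 1319 lower (18.0%). With plain CPM the balance turned, to 1386 higher and 1115 lower. Most of these differences were small. Independent random signs would also agree in all 3 pairs for a sizeable share of identifiers, though below the 33.9% found, and in only 2 pairs for a larger share. Identifiers are not independent, and the excess was given no test. The 2488, which are 33.9%, are therefore not a count of layer differences. At least 1.5-fold in every pair was reached by 89 higher and 146 lower identifiers, or 126 and 118 with plain CPM. At least 2-fold in every pair was reached by 5 higher, ENSMFAG00000039346 and ENSMFAG00000045219 among them, and by 22 lower, which include ENSMFAG00000004793 and ENSMFAG00000001045. With plain CPM these were 6 and 20. With only numbers 2 and 3, 4198 of 6970 identifiers had one direction in both (60.2%), 2028 higher and 2170 lower, and at least 2-fold in both was reached by 34 higher and 57 lower. At 2-fold with TMM, the identifiers lower in epiblast outnumbered those higher both with and without number 1. The split without number 1 is not given with plain CPM.

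The share of identifiers with one direction was larger among abundant identifiers. Of 3346 identifiers between 20 and 50 CPM, 29.1% had one direction in all 3 pairs, 496 higher in epiblast and 477 lower. From 100 to 500 CPM the share was 41.9% of 1659, with 276 higher and 419 lower. At 500 CPM or more it was 41.8% of 237, with 24 higher and 75 lower, or 29 and 65 with plain CPM. All identifiers at 100 CPM or more split into 300 higher and 494 lower with TMM, and 367 and 424 with plain CPM. The excess of lower identifiers at 100 CPM or more was thus much smaller with plain CPM. The split from 100 to 500 CPM is not given with plain CPM. Among identifiers with one direction, the median of the smallest pair difference was 0.24 in the lowest class, on the log2 scale. It was 0.16 in the highest class, so the abundant ones among them differed by less in their smallest pair. Hypoblast libraries were also the deeper ones. With every library thinned to 5455589 counts, 2492 identifiers had one direction, 1205 higher and 1287 lower.

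No identifier passed the test between the layers. EdgeR's quasi-likelihood test on the 6 libraries called 0 of 13116 identifiers at an adjusted p under 0.05 (0%), with 1.00 as its smallest adjusted p. At an unadjusted p under 0.05 there were 280 identifiers (2.13%), 108 higher and 172 lower in epiblast. With the number as a block, edgeR again called 0, with a smallest adjusted p of 0.332. The block raised the identifiers at an unadjusted p under 0.05 to 580 (4.42%), 184 higher and 396 lower. Of the 280 identifiers, 210 were also among the 580 (75% of the former and 36.2% of the latter). Leaving out number 1 from the blocked edgeR fit gave 6 calls, 1 higher and 5 lower, of 13657 identifiers, ENSMFAG00000004793 among them. Of the 6 calls, 2 were lower in all 3 pairs, 2 had mixed directions, and the rest were not among the 13116. In all 4 calls that were among the 13116, 1 library of the higher layer had more CPM than the sum of the other 2, number 1 included. A blocked fit without 1 number has 1 residual degree of freedom. Leaving out number 3 gave 3 calls, all lower, with none of the identifiers described below, and leaving out number 2 gave 0.

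Other tools made calls once the number was a block. DESeq2, whose shares are of the identifiers it gave an adjusted p, called 1 without the block (0.00774%), ENSMFAG00000004793, and 36 with it (0.298%), 6 higher and 30 lower in epiblast. Limma voom with sample quality weights called 0 without the block (0%) and 19 with it (0.145%), 3 higher and 16 lower. At an unadjusted p under 0.05 it had 634 without the block, 324 higher and 310 lower. With the block, calls lower in epiblast outnumbered calls higher in both tools. The tools shared 9 identifiers, which is 25% of the DESeq2 calls and 47.4% of the limma voom calls. All 36 DESeq2 calls had one direction in all 3 pairs, while 7 of the 19 limma voom calls had mixed directions. The calls were made on differences in these same libraries, so their directions are no independent support. In 22 of the 36 and 13 of the 19, 1 library of the higher layer had more CPM than the sum of the other 2.

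The 9 identifiers called by both DESeq2 and limma voom with the block were well expressed, with a median level of 437 CPM. All 9 had one direction in all 3 pairs, 2 higher and 7 lower in epiblast. The pair differences of the 2 higher ranged from 0.71 to 1.70 on the log2 scale. Those of the 7 lower ranged in size from 0.57 to 5.88. The layers did not overlap for 5 of the 9. Over all 7338 identifiers, 33.9% had one direction in all 3 pairs and 9.98% had no overlap. The 9 were called on differences between these same libraries, so their directions and ranges are no independent support. Across the 6 libraries their highest and lowest CPM differed by 2.47-fold to 347-fold, with a median of 5.45-fold. In edgeR with the block the 9 had unadjusted p-values of 0.00151 to 0.00411 and an adjusted p of 0.925, so the tools did not give the same call.

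The identifiers named here had one direction in all 3 pairs, no overlap between the layers, and the largest smallest-pair difference among such identifiers, 2 in each direction. They were selected on these differences, so their folds describe them and their p-values are not independent evidence. The next in rank had smallest pair differences of 0.96 on the side higher in epiblast and 1.29 on the other, against 1.31 and 1.40 for the last one named.

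ENSMFAG00000039346 was higher in epiblast. Its epiblast libraries had 94.8, 33.5 and 33.8 CPM for numbers 1, 2 and 3, from 526, 223 and 200 counts. Its hypoblast libraries had 12.1, 13.2 and 12.6 CPM, from 88, 122 and 130 counts. The hypoblast values were nearly the same in all 3 libraries, and epiblast library 1 was the highest of the 6. The pair differences were 2.95, 1.32 and 1.41. The layer means were 54.1 CPM ± 35.3 in epiblast and 12.6 CPM ± 0.597 in hypoblast (SD, n = 3 each). The edgeR log2 fold change was 2.10 (SE 0.55, adjusted p = 1.00), and 1.90 (SE 0.51, adjusted p = 0.925) with the block. Without epiblast library 1 it was 1.42.

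ENSMFAG00000045219 was also higher in epiblast, at a lower level. It had 77.9, 21.7 and 16.2 CPM in epiblast libraries 1, 2 and 3, and 4.11, 8.58 and 2.90 CPM in the hypoblast libraries. Epiblast library 1 was again the highest, and the lowest epiblast library stood 1.89 times above the highest hypoblast library. The pair differences were 4.16, 1.31 and 2.38. The edgeR log2 fold change was 2.89 (SE 0.83, adjusted p = 1.00), and 2.66 (SE 0.76, adjusted p = 0.925) with the block. Without epiblast library 1 it was 1.87, which is over 1.5 times smaller.

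ENSMFAG00000004793 was lower in epiblast and had the largest layer difference of the 4. Hypoblast libraries 1, 2 and 3 had 50.8, 424 and 32.5 CPM, from 371, 3904 and 336 counts. Epiblast libraries had 9.92, 6.92 and 4.73 CPM, from 55, 46 and 28 counts. Hypoblast library 2 stood far above all others, and the ranges did not overlap with or without it. The pair differences were -2.33, -5.88 and -2.71. The edgeR log2 fold change was -4.55 (SE 1.06, adjusted p = 1.00), and -2.52 without hypoblast library 2. With the block it was -3.62 (SE 0.78, adjusted p = 0.925). Its adjusted p was 0.00227 in DESeq2 and 0.870 in limma voom without the block, and 0.000108 and 0.00174 with it.

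ENSMFAG00000001045 was lower in epiblast with the most even values. Hypoblast libraries had 37.0, 32.6 and 49.6 CPM for numbers 1, 2 and 3. Epiblast libraries had 5.59, 12.2 and 7.77 CPM. No single library carried the difference, and the layer means were 8.51 CPM ± 3.36 in epiblast and 39.7 CPM ± 8.82 in hypoblast (SD, n = 3 each). The pair differences were -2.67, -1.40 and -2.63. The edgeR log2 fold change was -2.22 (SE 0.53, adjusted p = 1.00), and -2.27 (SE 0.55, adjusted p = 0.925) with the block. Leaving out any single library kept it between -2.57 and -1.99. With the block the adjusted p was 0.04995 in DESeq2 and 0.183 in limma voom.

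**Figure D4:**
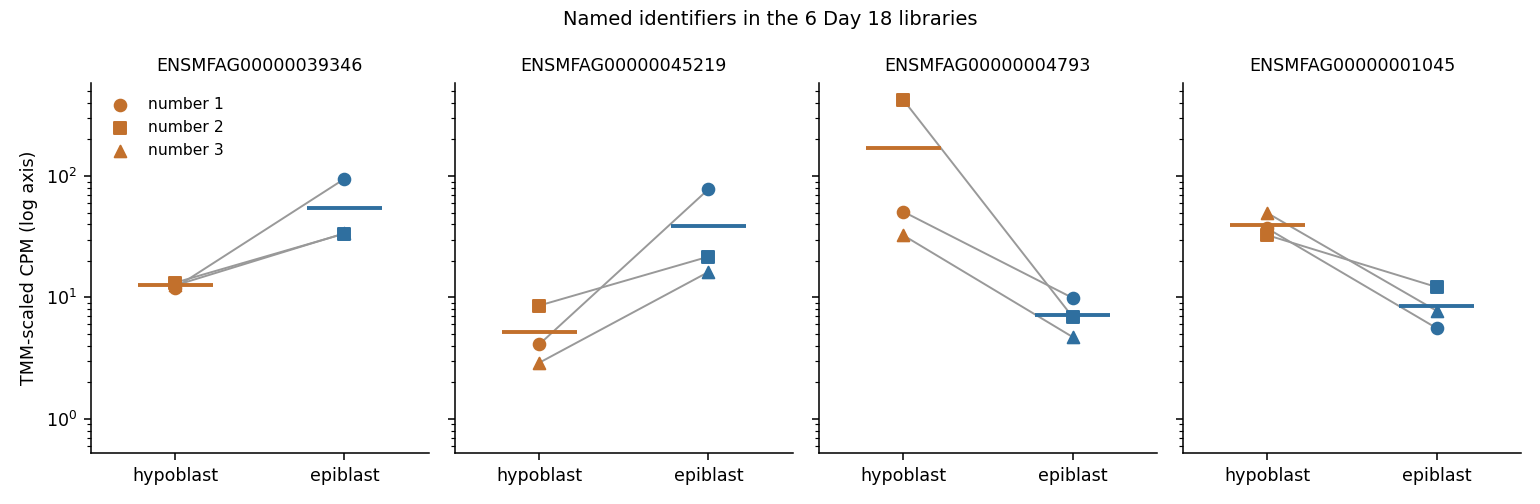
TMM-scaled CPM (log axis) of the 4 named identifiers in the hypoblast (orange) and epiblast (blue) libraries, with marker shapes for numbers 1 to 3, grey lines joining same-numbered libraries and bars at layer means (n = 3). The layers do not overlap in any panel, and hypoblast library 2 reaches 424 CPM for ENSMFAG00000004793.

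The levels in the 19 other libraries of the series, which had no part in choosing these identifiers, were set beside both layers. These are 6 Day 18 libraries labelled exmc, 4 Day 18 libraries labelled others, 1 Day 16 library, and 4 libraries in each of the Day 20 title sets E20_1 and E20_2. All 25 libraries were put on one TMM scale for this, so CPM values differ slightly from those above. ENSMFAG00000039346 was above the hypoblast range in 17 of the 19 other libraries and above the epiblast range in none. Its group medians were 11.9 CPM in hypoblast, 18.4 in exmc, 19.3 in E20_1, 20.9 in E20_2, 31.3 in epiblast and 34.6 in others, with 48.1 CPM in the Day 16 library. ENSMFAG00000045219 was above the hypoblast range in 16 of the 19 and within the epiblast range in 14. For both identifiers hypoblast had the lowest median of the groups. In the order of ENSMFAG00000039346, neighbouring groups overlapped except E20_2 and epiblast, where the highest E20_2 library lay just below the lowest epiblast library.

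ENSMFAG00000001045 showed the opposite layout, with epiblast lowest by its median. It was above the epiblast range in 16 of the 19 other libraries and within the hypoblast range in 7. Its medians were 7.20 CPM in epiblast, 14.6 in E20_1, 22.2 in E20_2, 30.3 in exmc, 30.9 in others and 33.7 in hypoblast, with 31.0 CPM in the Day 16 library. Neighbouring groups in this order overlapped. Exmc library 4, at 0.287 CPM, was the one library below the epiblast range. ENSMFAG00000004793 was instead high in few libraries. It was below the hypoblast range in 17 of the 19, and the exceptions were E20_1 library 1 at 182 CPM and exmc library 1 at 53.9 CPM. In the libraries labelled others it ranged from 0.451 to 6.05 CPM.

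**Figure D5:**
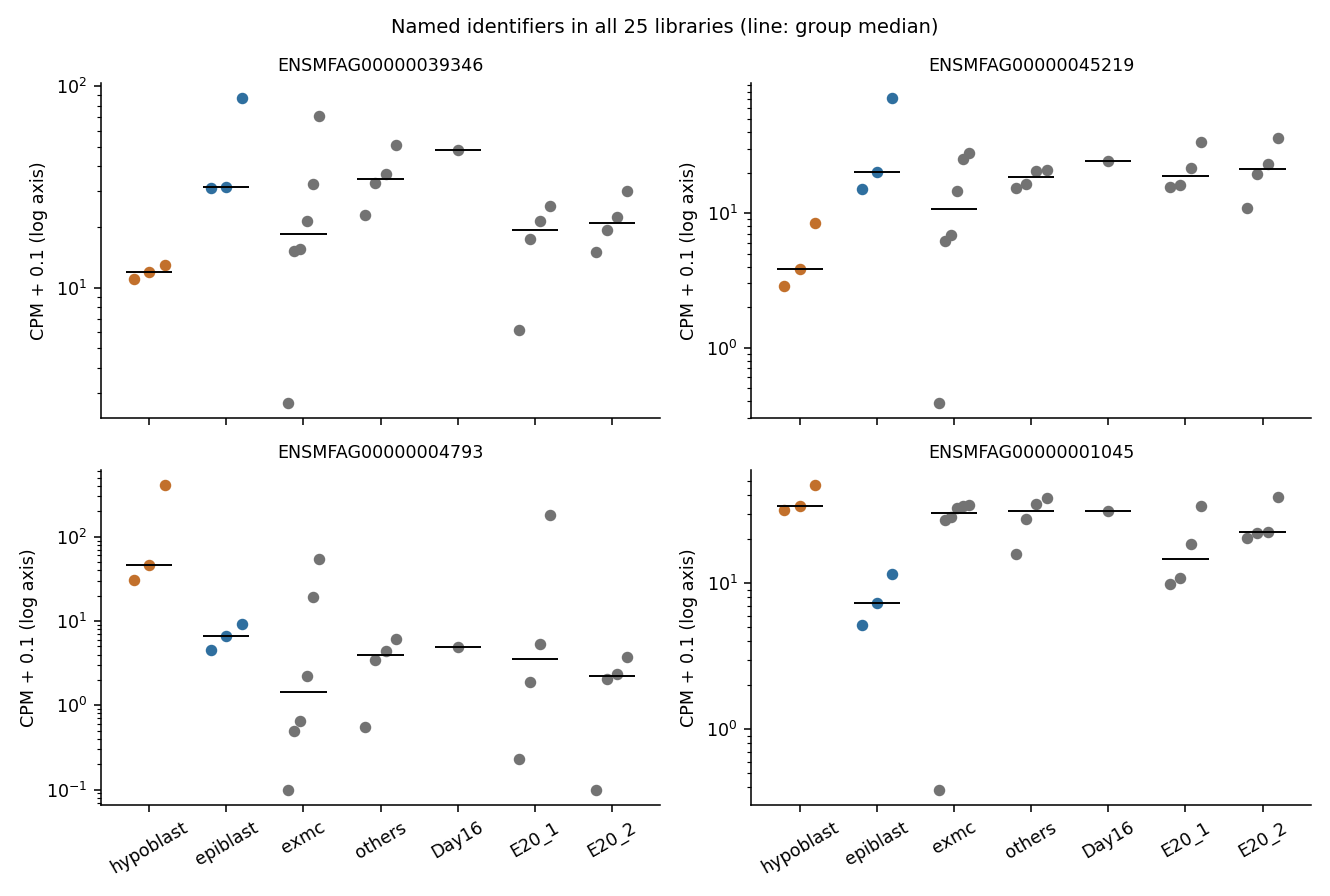
CPM plus 0.1 on a log axis for the 4 named identifiers in all 25 libraries on one TMM scale, by label or title set, with 1 point per library and a line at each group's median. Hypoblast lies low for ENSMFAG00000039346 and ENSMFAG00000045219, epiblast lies low for ENSMFAG00000001045, and ENSMFAG00000004793 is high in hypoblast, in E20_1 library 1 and in exmc library 1.

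Identifiers without overlap between the layers, which are not a count of layer differences, were also placed beside the exmc and others regions of the same day. Of the 368 without overlap and higher in epiblast, the exmc median was nearer the epiblast mean for 232 (63.0%). Of the 364 lower in epiblast it was nearer the epiblast mean for 284 (78.0%). Against the libraries labelled others these shares were 51.6% and 67.0%. The exmc level lay between the layers for 217 of the 368 and for 146 of the 364. For others this held for 246 and 220. No share over all 7338 identifiers is given beside these, so they are not shown to be particular to identifiers without overlap. Depth also differed, with totals of 2909114 to 6757471 in exmc, 5455589 to 6295688 in epiblast, 5142836 to 8875456 in others and 7386086 to 10462278 in hypoblast. Its part in the result was not tested. Among identifiers at least 1.5-fold apart in every pair, the 2 directions had nearly the same shares. Of the 89 higher in epiblast, 57 were nearer epiblast in exmc and 49 (55.1%) in others. Of the 146 lower, 93 (63.7%) were nearer epiblast in exmc and 84 (57.5%) in others.

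No abundant identifier was present in one layer and absent from the other. Counts in all 3 epiblast libraries and none in hypoblast were found for 38 identifiers, and the reverse for 58. The highest mean level among them was 7.17 CPM in epiblast and 17.1 CPM in hypoblast, and 0 of either reached 20 CPM. After thinning to equal depth the numbers were 54 and 46, so the direction of this split turned with depth.

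The most abundant identifier of all 6 libraries, ENSMFAG00000000004, took 8.72% ± 1.87 of counts in epiblast and 6.25% ± 0.0335 in hypoblast (SD, n = 3 each). Its lowest epiblast share of 6.99% lay above its highest hypoblast share of 6.28%, but it did not pass edgeR's test (log2 fold change 0.42, SE 0.26, adjusted p = 1.00), and its TMM-scaled difference in number 2 was 0.0030. ENSMFAG00000038514 and ENSMFAG00000032376 had been picked for high levels in these same 3 hypoblast libraries against exmc, so their hypoblast values were already used and a lower epiblast level is no independent finding. ENSMFAG00000038514 had 475 CPM ± 155 in hypoblast and 258 CPM ± 122 in epiblast (SD, n = 3 each), with an edgeR log2 fold change of -0.88 (SE 0.45, adjusted p = 1.00). ENSMFAG00000032376 had 497 CPM ± 170 in hypoblast and 330 CPM ± 43.8 in epiblast (SD, n = 3 each), with a log2 fold change of -0.59 (SE 0.32, adjusted p = 1.00 in edgeR).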

How the data were processed

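As deposited by the authors, the data are raw counts, whole numbers of reads for every Ensembl identifier and library, in a single file. STAR 2.3.4 and RSEM appear in the submitters' processing notes with no role stated. The genome build, annotation and use of strand were not given in the labels or the file, so identifiers that share reads with close copies or antisense genes are uncertain. Titles tied every column to a sample, with 0 left over, and Smart-seq2 reads carry no molecular identifiers.

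The 6 Day 18 epiblast and hypoblast libraries, of 5455589 to 10462278 counts, were fitted in edgeR 4.0.16 (R 4.3.3): filterByExpr by layer, TMM, and the two-sided quasi-likelihood test, with a threshold of 0.05 on the Benjamini-Hochberg adjusted p. SEs were derived from the F statistic. Log2 CPM used a prior count of 2. Alternatives were DESeq2 1.42.0, limma 3.58.1 (voom with quality weights), the number as a block, all 16 Day 18 libraries, other filters, scalings and depths, and leaving out libraries. The fitting code was run on simulated data, drawn with less spread beyond the number than these libraries had. That run does not show what the test could find here. Python 3.11.15 with pandas 2.3.3 and matplotlib 3.10.9 made the descriptions.

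Numbers were taken as pairing the layers because deviations from the layer means correlated over 0.1 for each number (0.420, 0.709 and 0.494), a pairing seen in the data and not stated in the labels. The layers, lists and rules were chosen with earlier results of these data known. Of the identifiers with at least 20 CPM, one direction in all pairs and no overlap, the 2 with the largest smallest-pair difference in each direction were named. The 21 gene lists with symbols could not be read.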

Additional observations from a re-analysis of the deposited data

How the results depend on the processing

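The call of 0 identifiers in edgeR held in 17 of 23 alternatives. It became 1 in DESeq2, 36 in DESeq2 and 19 in limma voom with the replicate block, 2 with the replicate block and no filter on low counts, and 0 to 6 where 1 library or 1 number was left out. The 2 calls with the replicate block and no filter on low counts do not include a named identifier. The 280 identifiers at an unadjusted p under 0.05 became 580 with the replicate block, 634 in limma voom, 1100 in DESeq2 and 1229 in limma voom with the block, and 520 with no filter on low counts. With the block they were 569 after thinning, 541 with the filter of 10 CPM and 852 with no filter, all 3 chosen after seeing the data. Leaving out 1 library or number gave 239 to 1108, with 450 without epiblast library 3, and in the blocked fit 1108 without number 1, 300 without number 2 and 553 without number 3. The cause was not tested.

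The 2488 identifiers with one direction became 794 at a minimum of 100 CPM, 3926 with no minimum, 235 at 1.5-fold and 27 at 2-fold in every pair, and 3897 to 4198 with 1 number left out, where fewer pairs have to match. The 732 without overlap became 232, 1191, and 2024 to 2398 in the same order, without the fold settings. The 4 named identifiers kept their direction in all 23 fits tried for each. They were selected for one direction and no overlap, which made this outcome nearly certain, so it is no support for them.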
